A study of Homo sapiens with 6 samples.

Results

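HGF and 9 receptor tyrosine kinases (MET, PDGFRA, PDGFRB, KIT, EGFR, ERBB2, ERBB3, FGFR1 and IGF1R) were followed by name in a table of 23145 genes, and all 10 were present with a value in every library. The 8 other than PDGFRB and KIT averaged 1 FPKM or more, the minimum for a test. FPKM is a read number scaled by transcript length and by library size, so levels of different genes can be set side by side. RNA sequencing was done once on each of 6 cultures of the human ovarian cancer lines A2780 and OVCAR3, and the study asks which mRNAs go with COL11A1, the gene of the alpha 1 chain of type XI collagen. 3 cultures form the COL11A1-low group: A2780 given a scrambled shRNA, A2780 given an shRNA that targets COL11A1 (A2780-shCOL11A1), and OVCAR3 transfected with GFP (OVCAR3-GFP). The COL11A1-high group held A2780-COL11A1 and OVCAR3-COL11A1, both transfected with the collagen gene, and A2780CIS. A2780CIS carries no named construct: it is a cisplatin-resistant derivative selected by long exposure to the drug, and its COL11A1 is high without transfection. All cultures grew in RPMI medium with serum. A2780-COL11A1 has no transfected control, and both low A2780 libraries carry an shRNA, so in A2780 construct type and COL11A1 cannot be told apart. Each culture is a single library, so libraries of a group differ in construct or line as well as by chance.

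COL11A1 followed the labels within each line. In A2780 it was at 0.670 FPKM with the shRNA against it, 4.23 with the scrambled shRNA, 8.17 with overexpression and 297 in A2780CIS; in OVCAR3 it was at 0.0258 with GFP and 1.67 with overexpression. Relative depth, estimated from the lowest values of the table, ranged from 0.501 in OVCAR3-COL11A1 to 1.58 in A2780-COL11A1, with A2780 scrambled shRNA at 1. Of 6 markers of ovarian cancer lines, all were at 1 FPKM or more in both OVCAR3 libraries. In A2780, FOLR1 alone reached that level, at 4.22 FPKM with the scrambled shRNA, 6.999 in A2780-shCOL11A1 and 2.56 in A2780-COL11A1. FOLR1 was at 0.001 in A2780CIS, the lowest value in the table, and at 6.199 (GFP) and 1.47 (COL11A1) in OVCAR3. Its log2 difference by line was 0.27 and did not pass (limma, adjusted p = 0.701). PAX8, WT1 and SOX17 were at most 0.0398 FPKM in A2780. The 10 epithelial markers summed to 3193 and 1648 FPKM in OVCAR3 and to between 12.6 and 56.7 in A2780. In OVCAR3, 9 of the 10 were called higher (limma, adjusted p under 0.05). MUC1 was called lower, at 0.882 and 1.27 FPKM against 6.44 to 9.63. The 10 fibroblast markers summed to 9.04 and 21.0 in OVCAR3 and to between 262 and 603 in A2780, with COL3A1, THY1 and POSTN the most abundant there. Of 6 fibroblast markers tested, these were called lower in OVCAR3 and 3 were not called. Among the latter, COL1A1 was at 4.30 and 6.86 FPKM in OVCAR3 against 0.688 to 4.05 in A2780. Endothelial markers summed to at most 0.433 FPKM in any library and leukocyte markers to at most 4.22.

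Receptor tyrosine kinases are single-pass membrane proteins. Most dimerize when a growth factor binds outside the cell, phosphorylate each other's tails and recruit adaptors to the RAS-ERK and PI3K-AKT pathways. HGF, hepatocyte growth factor, is made mainly by mesenchymal cells as an inactive precursor; proteases cleave it, and it then activates MET on epithelial cells. The PDGF receptors and KIT are typical of mesenchymal, melanocytic and haematopoietic cells, while EGFR, ERBB2 and ERBB3 form mixed dimers in epithelia, where ERBB2 binds no ligand of its own and ERBB3 has little kinase activity. FGFR1 binds fibroblast growth factors and IGF1R binds insulin-like growth factors. In ovarian cancer these receptors have been studied as drug targets.

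The promoters of 4 members are given here because their levels separate the lines in opposite ways. HGF and PDGFRA were near 0 in OVCAR3 and higher in A2780, and EGFR and MET were higher in OVCAR3. PDGFRA was at 1.42 FPKM in A2780CIS and at 44.1 to 66.1 in the other A2780 libraries. Each sequence holds the 250 bases before the gene's start in RefSeq (GRCh38.p14), read in the direction of the gene: HGF at chr7:81770048-81770297 on the minus strand, PDGFRA at chr4:54229043-54229292, EGFR at chr7:55018767-55019016 and MET at chr7:116671946-116672195 on the plus strand. Capitals mark the GC box, GGGCGG on either strand.
HGF: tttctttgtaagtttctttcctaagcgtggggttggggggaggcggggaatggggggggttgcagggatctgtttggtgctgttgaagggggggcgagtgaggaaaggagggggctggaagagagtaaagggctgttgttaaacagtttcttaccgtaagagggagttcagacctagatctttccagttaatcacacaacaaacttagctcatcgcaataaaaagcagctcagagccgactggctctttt
PDGFRA: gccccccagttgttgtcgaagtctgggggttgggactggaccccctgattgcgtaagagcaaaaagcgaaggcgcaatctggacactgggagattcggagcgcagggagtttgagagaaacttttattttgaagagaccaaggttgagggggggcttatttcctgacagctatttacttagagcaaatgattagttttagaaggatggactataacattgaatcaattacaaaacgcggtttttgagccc
EGFR: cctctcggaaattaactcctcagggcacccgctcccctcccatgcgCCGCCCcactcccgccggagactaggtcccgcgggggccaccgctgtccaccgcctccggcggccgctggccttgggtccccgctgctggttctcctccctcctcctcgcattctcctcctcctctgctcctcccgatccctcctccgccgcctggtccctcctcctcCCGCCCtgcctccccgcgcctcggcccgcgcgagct
MET: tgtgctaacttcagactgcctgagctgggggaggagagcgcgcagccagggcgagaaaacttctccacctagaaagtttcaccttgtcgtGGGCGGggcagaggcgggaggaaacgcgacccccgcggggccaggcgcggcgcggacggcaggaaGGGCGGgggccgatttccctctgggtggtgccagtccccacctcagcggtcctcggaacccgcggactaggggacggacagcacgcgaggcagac

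The HGF and PDGFRA windows held no GC box, and the EGFR and MET windows held 2 each; 42.6% of 35116 promoter windows of this length held at least 1. None of the 4 held TATAAA (10.7% of all windows) or CCAAT (32.0%) on either strand. GC content was 50.0% for HGF and 46.8% for PDGFRA, under the median of 58.0% over all windows, and 73.6% for EGFR and 68.4% for MET. Of the 8 members matched in the promoter table, KIT (76.4%) and IGF1R (81.2%) had the highest GC content, ERBB2 had 65.6% and PDGFRB 58.4%. IGF1R, with the highest, had its lower levels in OVCAR3, a line difference that did not pass (limma, adjusted p = 0.061). GC boxes numbered 2 for IGF1R, 1 each for PDGFRB and KIT and 0 for ERBB2. PDGFRB was also lower in OVCAR3 and did not pass with no minimum (limma, adjusted p = 0.0619). Of the matched members called by line, HGF, PDGFRA and ERBB2 were lower in OVCAR3 and held 0 GC boxes. EGFR and MET were called higher and held 2 each, and KIT was higher with no minimum (limma, adjusted p = 0.0256). Any part of GC content or GC boxes in the line differences was not tested. A match is a run of letters, not a measured binding site, and the absence of one speaks only of this window.

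HGF was the most abundant member by far in every A2780 library and was close to 0 in OVCAR3. In A2780 it stood at 621 FPKM with the scrambled shRNA, 606 with the shRNA against COL11A1, 668 with COL11A1 overexpression and 378 in A2780CIS; in OVCAR3 it stood at 0.0231 with GFP and 0.127 with COL11A1. The lines did not overlap, and A2780CIS was the lowest of the A2780 libraries. Among 23145 genes HGF (chromosome 7, 81331443 to 81399452, GRCh37) ranked 95 to 158 in the A2780 libraries, and it took 0.0728% of the FPKM sum in A2780CIS and between 0.123% and 0.130% in the others. In OVCAR3-GFP its rank was 16863. On the scale log2(FPKM + 1), used for every difference below, HGF was lower in OVCAR3 by a log2 difference of -9.02 ± 0.27 (SE, limma, adjusted p = 9.04e-05).

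MET, the HGF receptor, had the opposite order. Its level was 0.330 FPKM (scrambled shRNA), 0.424 (shRNA against COL11A1), 0.242 (COL11A1 overexpression) and 0.628 (A2780CIS) in A2780, and 2.52 (GFP) and 2.72 (COL11A1) in OVCAR3. No A2780 library reached 1 FPKM, and both OVCAR3 libraries were above it. Whole reads could be recovered for MET: 31, 35, 36 and 44 in the A2780 libraries in that order and 128 in OVCAR3-COL11A1, so the A2780 values rest on few reads. The mean was 0.406 ± 0.165 FPKM in A2780 (SD, n = 4) and 2.62 ± 0.142 in OVCAR3 (SD, n = 2). MET (chromosome 7, 116312458 to 116438440) was higher in OVCAR3 by 1.37 ± 0.23 (SE, limma, adjusted p = 0.00631). No library had both HGF and MET at 1 FPKM or more. RNA was taken from whole cultures, so fewer cells with a transcript and less of it per cell cannot be told apart.

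**Figure D1:**
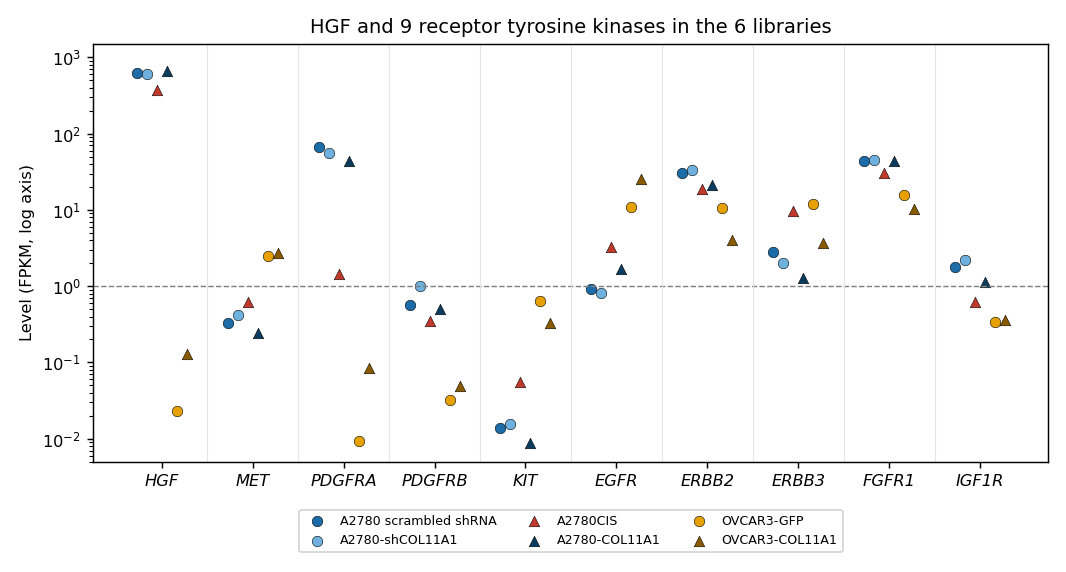
Level of each member in FPKM (log axis) in the 6 libraries; circles are COL11A1-low, triangles COL11A1-high, blue and red A2780, orange and brown OVCAR3, and the dashed line is 1 FPKM. HGF stands at 378 to 668 FPKM in A2780 and at most 0.127 in OVCAR3, and the PDGFRA value of A2780CIS, 1.42, stands apart from the other A2780 values of 44.1 to 66.1.

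PDGFRA, the PDGF receptor alpha chain, was the member that differed most between A2780CIS and the other A2780 cultures. It was at 1.42 FPKM in A2780CIS against 66.1 with the scrambled shRNA, 56.0 with the shRNA against COL11A1 and 44.1 with COL11A1 overexpression; in OVCAR3 it was at 0.00939 with GFP and 0.0857 with COL11A1. The 3 other A2780 libraries averaged 55.4 ± 11.0 FPKM (SD, n = 3), 38.9 times the A2780CIS value, which rests on 99 reads. The OVCAR3 values rest on 1 and 4 reads, and the A2780CIS library lay above both. PDGFRA (chromosome 4, 55095263 to 55164412) fell in A2780CIS, with a log2 difference of -4.52 ± 0.30 (SE, limma, adjusted p = 0.000365), with A2780CIS as a lone library assumed to vary like the others. It was also lower in OVCAR3 than in A2780 as a whole (-4.60 ± 1.22, limma, adjusted p = 0.0269). That second call was lost in 6 of 13 alternatives, with adjusted p from 0.0532 to 0.28 in them, among them every omission of a library other than A2780CIS; without A2780CIS the difference was -5.70 with an adjusted p of 0.000218.

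PDGFRB, the beta chain that binds PDGF-BB, was low throughout and was not among the genes tested. Its A2780 levels were 0.571 FPKM (scrambled shRNA), 1.00 (shRNA against COL11A1), 0.510 (COL11A1 overexpression) and 0.349 (A2780CIS), and its OVCAR3 levels 0.0326 (GFP) and 0.0495 (COL11A1). In the same order these are 46, 71, 65 and 21 reads in A2780 and 3 and 2 in OVCAR3, and the lines did not overlap. With no minimum, the line difference was -0.61 ± 0.15 (SE, limma, adjusted p = 0.0619).

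KIT, the stem cell factor receptor, lies 359.7 kb downstream of PDGFRA (chromosome 4, 55524094 to 55606881) and had the opposite order by line. In A2780 it was at 0.0138 FPKM (scrambled shRNA), 0.0157 (shRNA against COL11A1) and 0.00870 (COL11A1 overexpression), 1 read each, and at 0.0553 (3 reads) in A2780CIS. In OVCAR3-GFP it was at 0.639 FPKM (53 reads) and in OVCAR3-COL11A1 at 0.330 (12 reads). KIT was thus under 1 FPKM in every library; with no minimum its line difference was 0.53 ± 0.09 (SE, limma, adjusted p = 0.0256).

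Of the 4 tested genes with a part within 1 Mb of PDGFRA, 1 was called in A2780CIS, beside 11.1% of all tested genes. CHIC2, the nearest, was at 10.9 FPKM in A2780CIS and between 8.38 and 14.9 in the other A2780 libraries (difference 0.08). LNX1 differed by 0.00 and FIP1L1, an mRNA 3' end processing factor, by -0.38, and neither passed the test. SCFD2 fell by 1.28 on the log2 scale (limma, adjusted p = 0.0275), to 1.82 FPKM from 5.32 to 6.24. In the line comparison CHIC2, FIP1L1 and LNX1 were called higher in OVCAR3, the opposite direction to PDGFRA.

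**Figure D2:**
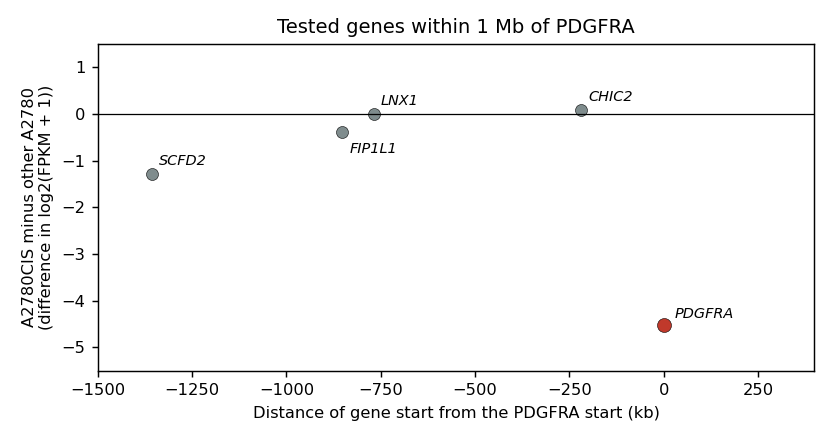
Difference in log2(FPKM + 1), A2780CIS minus the other 3 A2780 libraries, for PDGFRA (red) and the 4 tested genes with a part within 1 Mb (grey), against the distance of each gene's start from that of PDGFRA in kb. PDGFRA is at -4.52 while CHIC2, which starts at -219.3 kb, is at 0.08 and the lowest neighbour, SCFD2, at -1.28.

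Ligands of these receptors differed in A2780CIS too. PDGFC, a PDGFRA ligand, was at 80.2 FPKM there against 0.268, 0.546 and 0.626 in the other A2780 libraries, and KITLG, the KIT ligand, at 68.1 against 0.837, 0.683 and 0.495. Both rose in A2780CIS, by 5.79 ± 0.48 (SE, limma, adjusted p = 0.000914) and 5.38 ± 0.30 (adjusted p = 0.000208). PDGFD, a PDGFRB ligand, fell by 2.87 on the log2 scale (limma, adjusted p = 0.0048), to 0.0728 FPKM from 4.59 to 8.43. PDGFA was at 14.6 FPKM against 2.19 to 5.77 and did not pass (1.61 ± 0.49, limma, adjusted p = 0.0905), and PDGFB was at 0.0628 to 0.179 in A2780. The count for the 5 PDGF and KIT ligands was thus 2 higher and 1 lower in A2780CIS, beside 5.69% and 5.43% of all tested genes. By line it was 1 higher, beside 19.6%: PDGFB, at 3.71 and 3.31 FPKM in OVCAR3. Where PDGFC was above 5 FPKM, PDGFRA was under 2, and where PDGFRA was above 40, PDGFC was under 1. KIT stayed at 0.0553 FPKM in A2780CIS, where KITLG was highest.

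**Figure D3:**
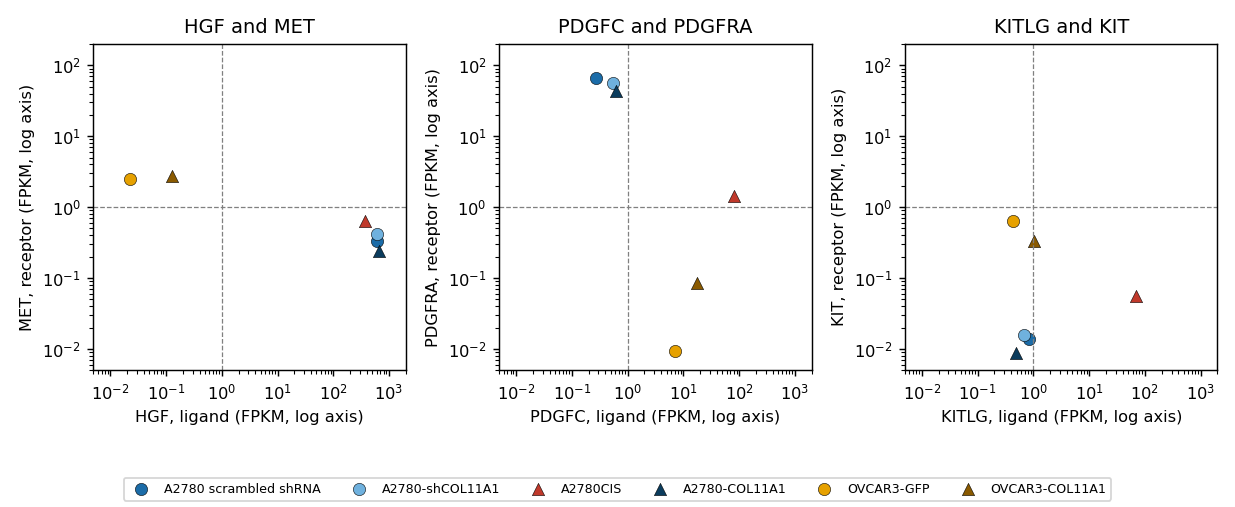
Ligand level against receptor level in FPKM (both axes log) in each of the 6 libraries for HGF and MET, PDGFC and PDGFRA, and KITLG and KIT; dashed lines mark 1 FPKM. A2780CIS (red triangle) is the library with both PDGFC (80.2 FPKM) and PDGFRA (1.42) above 1, and no library has both members of the other pairs above 1.

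EGFR was the member with the largest rise in OVCAR3 and the one that was higher in the COL11A1-high libraries of both lines. In A2780 its level was 0.906 FPKM (scrambled shRNA) and 0.822 (shRNA against COL11A1) in the low group and 1.70 (COL11A1 overexpression) and 3.29 (A2780CIS) in the high group. In OVCAR3 it was 11.1 with GFP and 25.4 with COL11A1. The lines did not overlap, and within each line every high library was above every low library. EGFR (chromosome 7, 55086724 to 55275031) rose in OVCAR3 by 2.83 ± 0.28 (SE, limma, adjusted p = 0.00104). Its locus overlaps the antisense gene EGFR-AS1, and whether the counting used strand is not given in the sources used here, so reads of the pair cannot be told apart. Of 12 tested genes within 1 Mb, 0 were called higher and 8 lower in OVCAR3, beside 19.6% and 25.6% of all tested genes. The median of these neighbours was -1.19.

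ERBB2, the partner receptor without a ligand, had the reverse of the EGFR pattern. In A2780 it was at 30.9 FPKM (scrambled shRNA) and 32.9 (shRNA against COL11A1) in the low group and 21.2 (COL11A1 overexpression) and 18.6 (A2780CIS) in the high group. In OVCAR3 it was at 10.5 with GFP and 4.06 with COL11A1. The lines did not overlap, and in both lines the high libraries were below the low. ERBB2 (chromosome 17, 37844392 to 37884915, overlapping MIR4728) was lower in OVCAR3 by -1.78 ± 0.21 (SE, limma, adjusted p = 0.00185). Of its 36 tested neighbours within 1 Mb, 4 were called higher and 17 lower in OVCAR3, beside 19.6% and 25.6% of all tested genes.

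ERBB3, which binds neuregulins and signals through its partners, was the 1 member whose lines overlapped. Its values were 2.81 FPKM (scrambled shRNA), 2.01 (shRNA against COL11A1), 1.30 (COL11A1 overexpression) and 9.60 (A2780CIS) in A2780, and 11.9 (GFP) and 3.72 (COL11A1) in OVCAR3. A2780CIS lay with OVCAR3-GFP, and OVCAR3-COL11A1 lay near the A2780 controls. The A2780CIS value was 4.71 times the mean of the other A2780 libraries, 2.04 ± 0.758 FPKM (SD, n = 3), but did not pass (1.83 ± 0.57, limma, adjusted p = 0.094). The line difference was 0.93 ± 0.73 (limma, adjusted p = 0.333), and 1.55 with an adjusted p of 0.00841 without A2780CIS. ERBB3 lies on chromosome 12, 56473808 to 56497291.

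FGFR1 varied little among the A2780 cultures other than A2780CIS. It was at 43.2 FPKM with the scrambled shRNA, 45.7 with the shRNA against COL11A1, 44.2 with COL11A1 overexpression and 30.5 in A2780CIS; OVCAR3 had 15.7 with GFP and 10.2 with COL11A1. The 3 A2780 libraries other than A2780CIS averaged 44.4 ± 1.27 FPKM (SD, n = 3), and both OVCAR3 libraries were below all of A2780. FGFR1 (chromosome 8, 38268655 to 38326352) was lower in OVCAR3 by -1.60 ± 0.22 (SE, limma, adjusted p = 0.00301).

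IGF1R was low in both lines. Its levels were 1.80 FPKM (scrambled shRNA), 2.19 (shRNA against COL11A1), 1.15 (COL11A1 overexpression) and 0.614 (A2780CIS) in A2780, and 0.342 (GFP) and 0.358 (COL11A1) in OVCAR3. The lines did not overlap, and both high A2780 libraries were below both low ones. The line difference for IGF1R (chromosome 15, 99192760 to 99507759, overlapping MIR4714) was -0.81 ± 0.28 (SE, limma, adjusted p = 0.061); it passed in 4 of 12 alternatives.

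In the line comparison, 6 of the 8 tested members were called, 2 higher and 4 lower in OVCAR3, where 45.2% of all 12841 tested genes were called, 19.6% higher and 25.6% lower. HGF, MET, PDGFRA and IGF1R passed the minimum through a single line, so that count, and the overlap given next, follow in part from the minimum. Of the 8 tested members, all but ERBB3 had libraries that did not overlap between the lines, against 61.0% of tested genes. The lines also did not overlap for PDGFRB and KIT, which were under the minimum. The median difference over the 8 was -1.20, beside -0.15 over all tested genes. With each library scaled to the same median the median over all genes was 0.03, and the called genes divided into 3066 higher and 2611 lower in place of 2522 and 3288.

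The order of the receptors differed between the lines. In A2780, PDGFRA (41.9 ± 28.4 FPKM, SD, n = 4), FGFR1 (40.9 ± 7.0) and ERBB2 (25.9 ± 7.06) had the highest means, and their ranges overlapped. ERBB3 (3.93 ± 3.83), EGFR (1.68 ± 1.15) and IGF1R (1.44 ± 0.697) followed and did not differ beyond their spread, and PDGFRB (0.608 ± 0.279), whose range overlapped that of IGF1R, and MET came next, with KIT last. In OVCAR3, EGFR had the highest mean (18.2 ± 10.1 FPKM, SD, n = 2), then FGFR1 (12.9 ± 3.91), ERBB3 (7.83 ± 5.81) and ERBB2 (7.26 ± 4.52). Their ranges overlapped in each step, and MET came next. By library, EGFR led in OVCAR3-COL11A1 (25.4 FPKM). In OVCAR3-GFP, FGFR1 (15.7) and ERBB3 (11.9) were above EGFR (11.1). FGFR1 was above ERBB2 in every library of both lines. Among 58 receptor tyrosine kinases in the table, PDGFRA ranked 2, 2, 28 and 3 in A2780 scrambled shRNA, A2780-shCOL11A1, A2780CIS and A2780-COL11A1, behind the collagen receptor DDR2 in the first pair. EGFR ranked 9 in OVCAR3-GFP and 4 in OVCAR3-COL11A1, after EPHA2, RYK and DDR1. Between 28 and 30 of the 58 receptors, and 5 or 6 of the 9 members among them, reached 1 FPKM in a library.

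**Figure D4:**
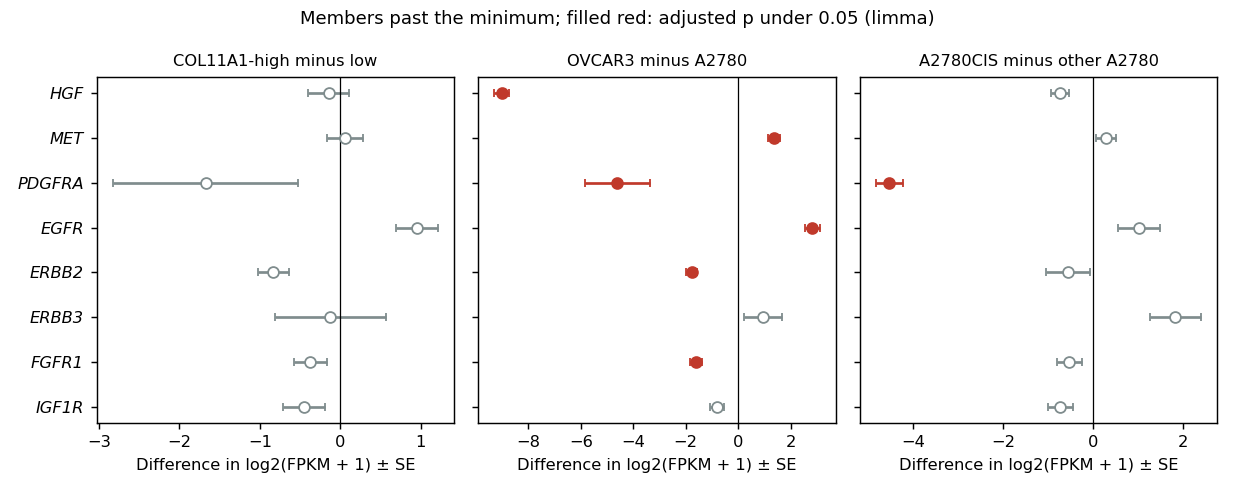
Difference in log2(FPKM + 1) with its SE for the 8 members tested, in 3 comparisons with their own axes; filled red points passed an adjusted p of 0.05 in limma. No member passed between the COL11A1 groups, 6 passed between the lines and PDGFRA passed for A2780CIS.

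In A2780CIS, PDGFRA was the 1 of 8 tested members called, beside 11.1% of all tested genes (5.69% higher, 5.43% lower). At an unadjusted p under 0.05, 4 members passed (PDGFRA, HGF, ERBB3 and IGF1R), beside 27.2% of all genes. HGF was at 378 FPKM against a mean of 632 ± 32.7 in the other A2780 libraries (SD, n = 3), and its difference of -0.74 ± 0.20 did not pass (limma, adjusted p = 0.0688; 0.037 to 0.273 over 11 alternatives). EGFR was 2.88 times the mean of the others, 1.14 ± 0.483 FPKM, with a difference of 1.03 ± 0.47 (limma, adjusted p = 0.224). IGF1R differed by -0.73 ± 0.28, FGFR1 by -0.52 ± 0.27, ERBB2 by -0.56 ± 0.48 and MET by 0.29 ± 0.22, with adjusted p between 0.154 and 0.516 in limma. Among fibroblast markers, POSTN was at 7.96 FPKM in A2780CIS against 140 to 278 in the other A2780 libraries, and COL3A1 at 548 against 75.7 to 147. Their part in the PDGFRA difference was not tested.

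Between the COL11A1 groups, no member passed the threshold: 0 of 8, and 0.0% of the 12841 genes. EGFR was the 1 member higher in every high library than in every low library of its line, and ERBB2 the 1 member lower in this way; such an order held for 22.4% of tested genes, 10.1% higher and 12.3% lower. EGFR differed by 0.95 ± 0.26 (SE, limma, adjusted p = 0.731) and ranged from 0.79 to 1.30 over 15 alternatives. ERBB2 differed by -0.83 ± 0.20 (limma, adjusted p = 0.731), with a range from -0.93 to -0.66. These were the members at an unadjusted p under 0.05, 2 of 8 beside 6.48% of all genes. PDGFRA differed by -1.67 ± 1.15 (limma, adjusted p = 0.731), and by -0.22 without A2780CIS. ERBB3 (-0.12 ± 0.69), FGFR1 (-0.37 ± 0.21), HGF (-0.14 ± 0.26), IGF1R (-0.45 ± 0.26) and MET (0.06 ± 0.22) had adjusted p between 0.731 and 0.963 in limma. None of the 8 had a group difference that varied between the lines at an unadjusted p under 0.05 in limma, beside 13.6% of all genes.

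**Figure D5:**
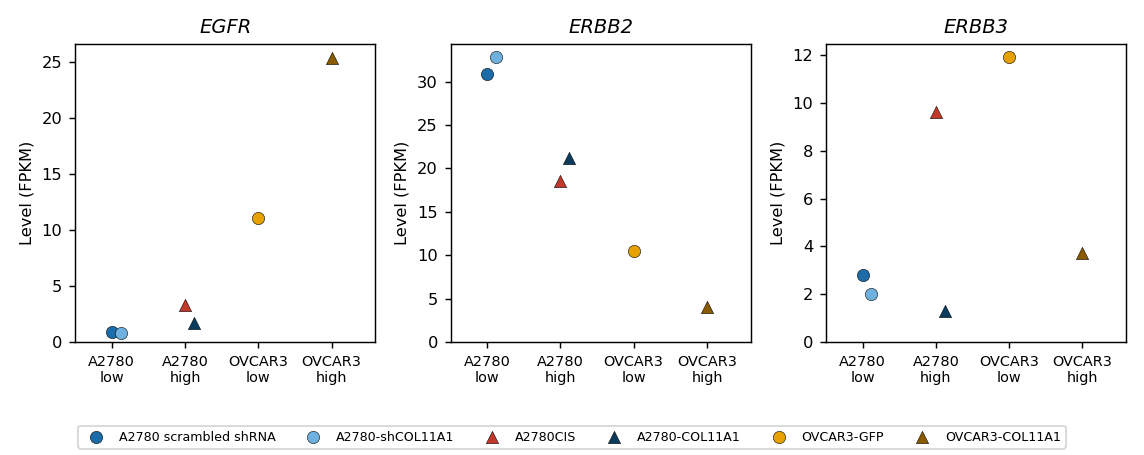
Levels of EGFR, ERBB2 and ERBB3 in FPKM (linear axes from 0) by line and COL11A1 group, 1 point per library. EGFR is higher and ERBB2 lower in the high libraries of both lines, and ERBB3 divides the high A2780 libraries, at 9.60 FPKM in A2780CIS and 1.30 with overexpression.

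Single construct pairs, 1 library against 1 and without a test, are counted here as past 2-fold where they differ by at least 1 on the scale log2(FPKM + 1), which low levels seldom reach. OVCAR3-COL11A1 had 2.29 times the EGFR level of OVCAR3-GFP, a difference of 1.13 on the scale log2(FPKM + 1). OVCAR3-GFP had 2.57 times the ERBB2 level and 3.21 times the ERBB3 level of OVCAR3-COL11A1, differences of -1.18 and -1.45. These 3 were the members past 2-fold on that scale, beside 11.0% of tested genes (6.79% higher, 4.18% lower), and the OVCAR3-COL11A1 library had the lowest depth. FGFR1 differed by -0.58, and the other members, all under 1 FPKM in both libraries except MET, by -0.30 to 0.14.

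In A2780-COL11A1 against A2780 scrambled shRNA no member passed 2-fold on the same scale, beside 2.76% of tested genes, although the plain FPKM ratio of ERBB3 was 0.461. EGFR differed by 0.50, ERBB2 by -0.52, ERBB3 by -0.73, PDGFRA by -0.57 and IGF1R by -0.39; HGF, MET, FGFR1, PDGFRB and KIT lay between -0.10 and 0.11. EGFR, ERBB2 and ERBB3 thus had the same signs in both overexpression pairs, which share no library. HGF and KIT did so as well, but at the limit of depth. KIT rests on 1 read in both libraries of the A2780 pair, and HGF was at 0.0231 and 0.127 FPKM in OVCAR3. MET, PDGFRA, PDGFRB, FGFR1 and IGF1R had opposite signs in the overexpression pairs. The OVCAR3 signs of PDGFRA and PDGFRB rest on 1 and 4 and on 3 and 2 reads. The share of all tested genes with the same sign was not counted. With A2780-shCOL11A1 as the control the EGFR difference was 0.57, the ERBB2 difference -0.61 and the ERBB3 difference -0.39, with none past 2-fold on that scale beside 4.62% of tested genes; the plain FPKM ratio of EGFR was 2.07. The knockdown against the scrambled shRNA gave values between -0.34 (ERBB3) and 0.35 (PDGFRB) and none past 2-fold, beside 0.374% of tested genes. There EGFR was at -0.07 and ERBB2 at 0.09. These A2780 pairs share libraries with each other.

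Of 10 other listed genes around HGF activation and MET, 6 were tested. In OVCAR3 5 were called higher and 1 lower, beside 19.6% and 25.6% of all tested genes. SPINT2, an inhibitor of the proteases that cleave HGF, was at 1355 and 767 FPKM in OVCAR3 and at 0.146 to 1.43 in A2780 (9.22 ± 0.40, SE, limma, adjusted p = 0.000173). SPINT1, its relative, was at 53.4 and 21.7 against at most 0.128, and ST14, the protease matriptase, at 30.3 and 7.75 against at most 0.0442. MST1, the ligand of the related receptor RON, was the 1 lower, at 0.459 and 0.385 against 2.09 to 11.9. Many of the listed genes passed the minimum through OVCAR3 alone, so these counts follow in part from the minimum. In A2780CIS 0 were called higher and 1 lower, MST1 (-1.64, limma, adjusted p = 0.0441), beside 5.69% and 5.43% of all tested genes.

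Of 11 listed ligands of the ERBB receptors, 5 were tested. In OVCAR3 these 5 were called higher and 0 lower, beside 19.6% and 25.6% of all tested genes, with the same limit of the minimum. BTC was at 11.4 and 8.77 FPKM against 0.001 in all A2780 libraries, and NRG1 at 4.60 and 12.3 against at most 1.11. TGFA was at 4.10 and 6.61 against at most 0.178, and the others were NRG2 and HBEGF. None was called in A2780CIS or between the COL11A1 groups. NRG1 and IRS2 were also the named genes whose profiles over the 6 libraries were nearest that of EGFR, at a root mean square distance of 0.19 in log2(FPKM + 1) each. Among the genes near HGF was SERPINF1 (0.62), and among those near PDGFRA was CD248 (0.28). ERBB2 lay nearest FOXRED2 (0.09) and the kinase-dead receptor PTK7 (0.13), ERBB3 nearest PTPN6 (0.10), FGFR1 nearest TMTC4, MET nearest SGMS1 and IGF1R nearest TAF1C.

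Of 16 listed genes of the FGF family and its partner proteins, 8 were tested. By line 4 were called higher and 2 lower, beside 19.6% and 25.6% of all tested genes. In A2780CIS 1 was called higher and 2 lower, beside 5.69% and 5.43%. FGF10, which acts mainly through FGFR2, was at 110 FPKM in A2780CIS and at most 0.805 elsewhere (6.34 ± 0.34, SE, limma, adjusted p = 0.000208). FGF18 was at 0.566 in A2780CIS and at 38.8 to 78.8 in the other A2780 libraries (-5.32 ± 0.67, limma, adjusted p = 0.00462), and FGF11 was the other lower gene. By line, FGF13 and FGF12 were the largest rises and FGF11 the largest drop (-3.07). FGF11, FGF12 and FGF13 are listed by family name, not as ligands of FGF receptors. Of the IGF list, 6 of 10 were tested. By line 2 were called higher and 0 lower, beside 19.6% and 25.6% of all tested genes: IGFBP3 (4.62) and IGFBP2 (2.69). In A2780CIS 3 were called higher and 0 lower, beside 5.69% and 5.43%. They were IGFBP7, IGFBP6 and IGFBP4, which bind or modulate IGFs, with rises of 3.97, 3.48 and 2.10.

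Of the 49 receptor tyrosine kinases that are not members, 32 were tested. By line 11 were called higher and 10 lower, beside 19.6% and 25.6% of all tested genes. AXL was at 16.1 to 31.7 FPKM in A2780 against 0.0699 and 0.378 in OVCAR3 (-4.34). DDR2 differed by -4.10, EPHA1 by 3.19 and EPHB1 by 2.90. In A2780CIS 7 were called higher and 2 lower, beside 5.69% and 5.43% of all tested genes. EPHA7 was at 0.0142 FPKM in A2780CIS and 30.9 to 50.9 in the other A2780 libraries (-5.43 ± 0.35, limma, adjusted p = 0.00033). EPHA3 differed by -2.87, EPHA6 by 2.64 and EPHA8 by 2.30. Between the COL11A1 groups no gene of any list was called.

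Of the adaptors that carry the signal inward, 20 of 20 were tested. By line 4 were called higher and 2 lower, beside 19.6% and 25.6% of all tested genes. GAB2, a docking protein, was at 90.1 and 56.1 FPKM in OVCAR3, at 1.02 in A2780CIS and at 7.74 to 11.4 in the other A2780 libraries, so that it was called higher by line (3.35) and lower in A2780CIS (-2.42). SHC1 had the opposite order, at 765 FPKM in A2780CIS, 171 to 203 in the other A2780 libraries and 52.5 and 42.4 in OVCAR3, with a line difference of -2.48 and an A2780CIS difference of 2.01. Of 19 tested genes that end receptor signalling, 10 were called higher and 3 lower by line, beside 19.6% and 25.6% of all tested genes. The largest differences were those of PTPRK (3.82), CBLC (3.14), LRIG1 (2.84) and SOCS2 (-3.47). In A2780CIS 2 rose, beside 5.69% of all tested genes. They were CBLB, a ubiquitin ligase for active receptors (2.34), and SH3KBP1 (1.35), which helps take receptors in from the surface.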

How the data were processed

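The authors deposited 1 table with a value per gene and library, in FPKM per the file headers; in 1648 cells a word stands where a number should be, so the formal unit of the authors' file is other, and the numbers were read as FPKM. Per the labels, poly-A RNA was sequenced with a stranded kit as single-end reads of 75 bases, on the NextSeq 500. STAR 2.5.0, RSEM 1.2.25 and GRCh38 are named, without a role, in the submitters' processing notes, whereas the loci are those of GRCh37, in which positions are given; the program behind the values and the filter that the file's name mentions are not given in the sources used here. Of 25275 entries, 1304 off the main chromosomes, 240 without a number in every library, 28 with a date as name and the entries of 308 names with several loci were left out, leaving 23145 genes. Depth in reads is unknown; relative depth, and whole reads of low genes, were estimated from the steps between low values (tolerance 0.1 read, over whole numbers up to 150) and carry counting error.

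The 12841 genes that averaged 1 FPKM or more were tested on log2(FPKM + 1), which understates changes of low genes, with limma 3.58.1 in R 4.3.3 (two-sided, variances moderated along an intensity trend, Benjamini-Hochberg at 5%) across all of them. The group and line differences came from a model with both terms, A2780CIS from a model with 3 arms and the interaction from a model with that term. P-values measure the spread between constructs, and the labels name no batch. The test was checked on simulated data. The members and lists were chosen with earlier results of these data known. From each list, genes named were those called with the largest differences, at most 4 per comparison (HBEGF and MST1 complete a count), and the nearest profiles were the smallest root mean square distances of centred values among genes tested, of which some are not reported here. Promoters are those of RefSeq. Alternatives changed the pseudocount, the minimum, the scaling, the variance model, the covariates and the libraries.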

Additional observations from a re-analysis of the deposited data

Results flagged for a closer look

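For 3 members the 2 lines had high minus low differences of opposite sign, with every A2780-high library below every A2780-low library. The share of all genes with this pattern was not counted, so the count of members cannot be set against it. The OVCAR3 differences of IGF1R and PDGFRB, 0.02 each, were under the median over all tested genes in that pair, 0.05. For PDGFRA the difference was -2.56 in A2780 and 0.11 in OVCAR3, 2.67 apart, and the interaction did not pass (limma, adjusted p = 0.722). The OVCAR3 value rests on 1 and 4 reads. Without A2780-COL11A1, which leaves A2780CIS as the lone high A2780 library, the interaction of PDGFRA was 4.78. That of HGF was 0.84 and that of ERBB3 -3.10. The spread within groups in that fit comes from the low A2780 libraries alone, so only the sizes are given.

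For IGF1R the differences were -0.68 and 0.02, 0.70 apart (limma, adjusted p = 0.474), at 0.342 and 0.358 FPKM in OVCAR3. For PDGFRB they were -0.31 and 0.02, 0.34 apart. PDGFRB was under the minimum, and with no minimum the interaction had an adjusted p of 0.789 in limma; its OVCAR3 values rest on 3 and 2 reads.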

How the results depend on the processing

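No paired analysis was possible because the labels give no replicate numbers and those used here follow accession order. No member passed between the COL11A1 groups under any alternative run. The group difference of HGF (-0.14) was 0.10 with a pseudocount of 0.1 and 0.12 with overexpression libraries and their controls only, and ran from -0.34 to 0.13 with a library left out. That of MET (0.06) was -0.0094 with overexpression libraries only and ran from -0.050 to 0.17 with a library left out. That of ERBB3 (-0.12) ran from -0.94 to 0.54 with a library left out and was 0.54 without either OVCAR3 library. The line difference of ERBB3 (0.93) ran from -0.064 to 1.93. The interaction of MET (0.03) was -0.18 with median scaling and -0.13 with quantile normalization and ran from -0.16 to 0.23 with a library left out; that of EGFR (0.26) was -0.17 with a pseudocount of 0.1 and ran from -0.079 to 0.59. The cause was not tested for any of these.

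With a library left out, genes called by line numbered 3181 to 7346 in place of 5810 (3181 without OVCAR3-COL11A1, 3850 without OVCAR3-GFP, 3464 with the scrambled shRNA library left out and 3804 with A2780-shCOL11A1 left out), and for A2780CIS 715 to 1950 in place of 1428 (715 with the scrambled shRNA library left out and 736 with A2780-shCOL11A1 left out); for A2780CIS they were 855 with a mean of at least 5 FPKM, where fewer genes were tested. The interaction called 0 genes, 1495 with no minimum, and 0 to 2856 with a library left out, 10 without A2780CIS and 2856 without A2780-COL11A1. Genes at an unadjusted p under 0.05 between the groups numbered 832, and 192 to 1968 with a library left out (192 for the scrambled shRNA library, 193 for A2780-shCOL11A1, 1968 for A2780-COL11A1, 1261 for OVCAR3-GFP and 1254 for OVCAR3-COL11A1), and 74 with no line term. PDGFRA in A2780CIS was called in 11 of 11 alternatives, from -5.17 to -4.39. HGF, EGFR, ERBB2 and FGFR1 by line were called in 13 of 13 and MET in 12 of 12. HGF in A2780CIS was called in 3 of 11 and ERBB3 in 2 of 11. The OVCAR3 values of PDGFRA, PDGFRB and HGF and the A2780 values of KIT are at the limit of depth, and differences among them are not detectable here.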
